A study of Mus musculus with 12 samples.

Results

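The 36 genes described here encode the membrane coat and scission machinery of the endosome. They comprise the retromer core genes Vps26a, Vps26b and Vps29, which are the ones of that core analysed here, sorting nexins (SNX) and the components of the endosomal sorting complexes required for transport (ESCRT), and they are 36 of the 55413 genes of the annotation used. The peaks of all 12 ATAC-seq libraries were merged where they shared at least 1 bp, which gave 263785 regions, and a region was assigned to a gene when it lay in the gene body or up to 5 kb upstream of a transcription start site of that gene. The 36 genes held 207 regions. Of these, 75 lay within 1 kb of a start site of the gene and are called promoter regions, and 132 lay outside (111 intronic, 12 exonic and 9 upstream).

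ATAC-seq measures open chromatin through the insertion of sequencing adapters by the Tn5 transposase. All 12 libraries came from primary cortical neurons of embryonic day 18 wild-type C57BL/6 mice, and the labels place every library in batch 1. The 4 groups had 3 libraries each. PBS cultures received phosphate-buffered saline for 7 days and PFF cultures received human α-synuclein preformed fibrils for 7 days. PFF+MLi-2 cultures received the fibrils and MLi-2, which blocks the kinase activity of LRRK2. PFF+Rab5 ASO cultures received the fibrils together with antisense oligonucleotides against the small GTPase Rab5. The study's methods give 5 days for MLi-2, begun after the fibrils, and 3 days for the oligonucleotides, which target Rab5a and Rab5b, while the free-text label of every library gives 7 days. That free text also names PBS instead of PFF for the MLi-2 and oligonucleotide libraries, and the groups here follow the titles and treatment labels. A control oligonucleotide is not named for these libraries, and the study's methods count each pregnancy as a biological replicate, with its cultures divided at random among the groups. Which library came from which pregnancy is not given in the sources used here.

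Retromer lifts selected transmembrane proteins out of endosomes and returns them to the Golgi or the plasma membrane, with sorting nexins reading the lipid identity and the curvature of the membrane. ESCRT works in the opposite direction: ESCRT-0 gathers ubiquitinated cargo, ESCRT-I and ESCRT-II pass it on, ESCRT-III filaments pinch the cargo-laden membrane into the lumen, and the VPS4 ATPases take the filaments apart. Neurons depend on this branch point between recycling and lysosomal degradation for receptors and synaptic vesicle proteins over long axons.

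Height is given as the percentile of a peak's fold enrichment within its own library's peak list, with 100 the highest peak, because folds of separately called lists are not on a common count scale. The lists held 137417 to 184717 peaks. Relative depth was estimated as the usual local background per bp of the shortest peak, with the mean library set to 1. It ran from 1.05 to 1.31 in PFF+Rab5 ASO, 0.957 to 1.03 in PFF+MLi-2, 0.912 to 0.976 in PBS and 0.775 to 0.919 in PFF. The median peak width was 112 to 124 bp with the Rab5 oligonucleotides and 127 to 139 bp elsewhere, with PFF at 135 to 139 bp. Thus the PFF+Rab5 ASO libraries were deeper by this estimate and had narrower peaks than the others. Every PFF library was shallower than every PFF+MLi-2 library. The part of these differences in the results below was not tested. Of marker genes, all 6 neuronal and all 6 projection-neuron genes had a promoter region called in all 12 libraries, as had 4 of 5 interneuron, 4 of 5 astrocyte, 4 of 5 oligodendrocyte-lineage and 4 of 4 progenitor genes but 0 of 5 microglial and 0 of 4 endothelial genes. In such bulk cultures, fewer cells of a type and less accessibility per cell cannot be told apart.

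The promoters of this machinery stood among the highest peaks of each library. Of the 36 genes, 35 (97.2%) had a promoter region called in all 12 libraries, against 62.8% of 21938 protein-coding genes. The highest such region of a gene is called its main promoter. Main promoters of the members had a median percentile of 95.74 (quartiles 92.59 and 97.67), against 92.38 (82.35 and 96.98) for the 13787 protein-coding genes with a main promoter. Of the 35, 27 (77.1%) lay above the 90th percentile on average, against 58.2% of those 13787 genes, 8 lay between 50 and 90, and 0 lay below 50. In 33 of the 35 the summit lay within 250 bp of an annotated start, and 13 main promoters also held a start of another gene within 1 kb, among them Vps26b with Ncapd3, Vps29 with Rad9b, Snx5 with Mgme1, Vps37a with Cnot7 and Chmp5 with Bag1, and which gene of a pair the signal belongs to was not tested.

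Sequence was read in windows of 201 bp centred on the median summit, on the plus strand of GRCm38, from the RefSeq FASTA of that build. The median GC content was 67.2% in the 35 main promoters and 66.2% in the main promoters of all protein-coding genes (12505 windows). The observed over expected ratio of CpG dinucleotides was 0.911 against 0.814. The 9 motifs searched, on both strands, were the E-box CACGTG, its longer form GTCACGTG, the ETS motif CCGGAAG, the GC box GGGCGG, the cyclic AMP response element TGACGTCA, the CCAAT box, the YY1 motif AAGATGGC, the NRF1 motif GCATGCGC and the AP-1 motif TGANTCA. GTCACGTG, the core of the element that the lysosomal regulators of the TFEB family are known to bind, contains the E-box, so the matches of these motifs overlap. It occurred at 4 of 35 main promoters (11.4%), those of Vps26a, Snx2, Vps37b and Pdcd6ip, against 3.69% of the main promoters of all protein-coding genes, and the same 4 were the ones with an E-box (8.18% in all). The ETS motif occurred in 9 (25.7%, against 14.4%), the GC box in 21 (60%, against 63%), CCAAT in 7 (20%, against 32.4%), the cyclic AMP response element in 3 (8.57%, against 3.21%), YY1 in 2 (5.71%, against 3.61%) and NRF1 in 1 (2.86%, against 4.57%). The AP-1 letters were in 0 of the 35 windows and in 2.76% of all. Each count describes these letters in these windows and not binding.

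Of the 4 main promoters that hold GTCACGTG, those of Vps26a (retromer), Vps37b (ESCRT-I) and Pdcd6ip (ALIX) are shown because they share this element across different complexes, with every motif found in capitals, and that of Snx2 (SNX-BAR) is not printed. Vps26a is at chr10:62486806-62487006, Vps37b at chr5:124032228-124032428 and Pdcd6ip at chr9:113708146-113708346, and all 3 genes lie on the minus strand. In Vps26a the palindromic stretch holds the element on both strands, and in Vps37b it stands beside an ETS motif, a GC box and a cyclic AMP response element.
Vps26a main promoter: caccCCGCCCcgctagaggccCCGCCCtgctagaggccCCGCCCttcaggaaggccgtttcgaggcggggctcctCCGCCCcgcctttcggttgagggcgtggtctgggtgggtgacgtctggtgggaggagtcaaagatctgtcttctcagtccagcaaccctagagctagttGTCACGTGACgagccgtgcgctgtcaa
Vps37b main promoter: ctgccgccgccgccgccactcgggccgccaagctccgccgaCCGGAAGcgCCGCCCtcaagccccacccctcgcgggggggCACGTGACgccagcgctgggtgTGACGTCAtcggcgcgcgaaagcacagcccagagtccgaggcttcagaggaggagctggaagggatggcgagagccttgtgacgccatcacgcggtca
Pdcd6ip main promoter: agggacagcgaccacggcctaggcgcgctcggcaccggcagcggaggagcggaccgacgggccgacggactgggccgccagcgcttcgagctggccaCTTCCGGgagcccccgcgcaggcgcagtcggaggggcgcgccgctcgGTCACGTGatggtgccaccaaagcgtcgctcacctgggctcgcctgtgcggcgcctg

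The main promoters of the sorting nexins of the list and of Vps26a and Vps29 stood above the protein-coding median of 92.38, and that of Vps26b below it. Vps26a and Vps26b encode alternative forms of a retromer subunit and Vps29 another subunit, and their mean percentiles were 95.14, 86.32 and 96.79. The summit of the Vps26b main promoter lay at −598 bp from its nearest start. Another Vps26b region, with its summit 12 bp from a start, averaged 79.42. The SNX-BAR proteins Snx1, Snx2, Snx5 and Snx6, which bend membrane into tubules, had a median of 98.06, the highest of the complexes with more than 2 genes. Snx3 and Snx27, which recruit retromer to particular cargo, stood at 96.29 and 98.61. Snx2 (98.92 on average) was at 99.33, 98.79 and 99.46 in PBS, 98.78, 98.5 and 97.75 in PFF, 98.76, 99.43 and 99.42 in PFF+MLi-2, and 98.93, 98.94 and 98.96 in PFF+Rab5 ASO. All 3 PFF libraries lay below all 3 PBS libraries at Snx2, and the moderated F test of limma over the 4 groups gave an adjusted p of 0.432. Snx6 (98.78) ranged from 97.85 to 99.54 over the 12 libraries.

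ESCRT-0 (Hgs, Stam and Stam2) had a median of 94.25 and ESCRT-II (Snf8, Vps25 and Vps36) one of 97.32. By this percentile of fold, ESCRT-I was the lowest complex, with a median of 84.87 over 8 genes. Its members spread from Mvb12b at 71.17 to Mvb12a at 97.99, with the cargo-binding Tsg101 at 97.18, Vps28 at 84.24 and the 4 Vps37 paralogues at 95.29 (Vps37a), 82.22 (Vps37b), 85.5 (Vps37c) and 82.35 (Vps37d). Fold divides summit fragments by the local background. Vps37b, Vps37c and Vps37d held medians of 50, 56.5 and 50 fragments over backgrounds of 5.253, 5.731 and 5.394. Vps28 held 40.5 over 3.91 and Mvb12b 32 over 3.956, and Snx2 of the SNX-BAR genes held 56 over 3.018. Differences in height between genes were not tested. The 9 ESCRT-III genes with a main promoter had a median of 96.06, and the VPS4 ATPases Vps4a and Vps4b stood at 94.01 and 99.02. Pdcd6ip, which encodes the ESCRT-binding protein ALIX, was at 94.82.

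**Figure D1:**
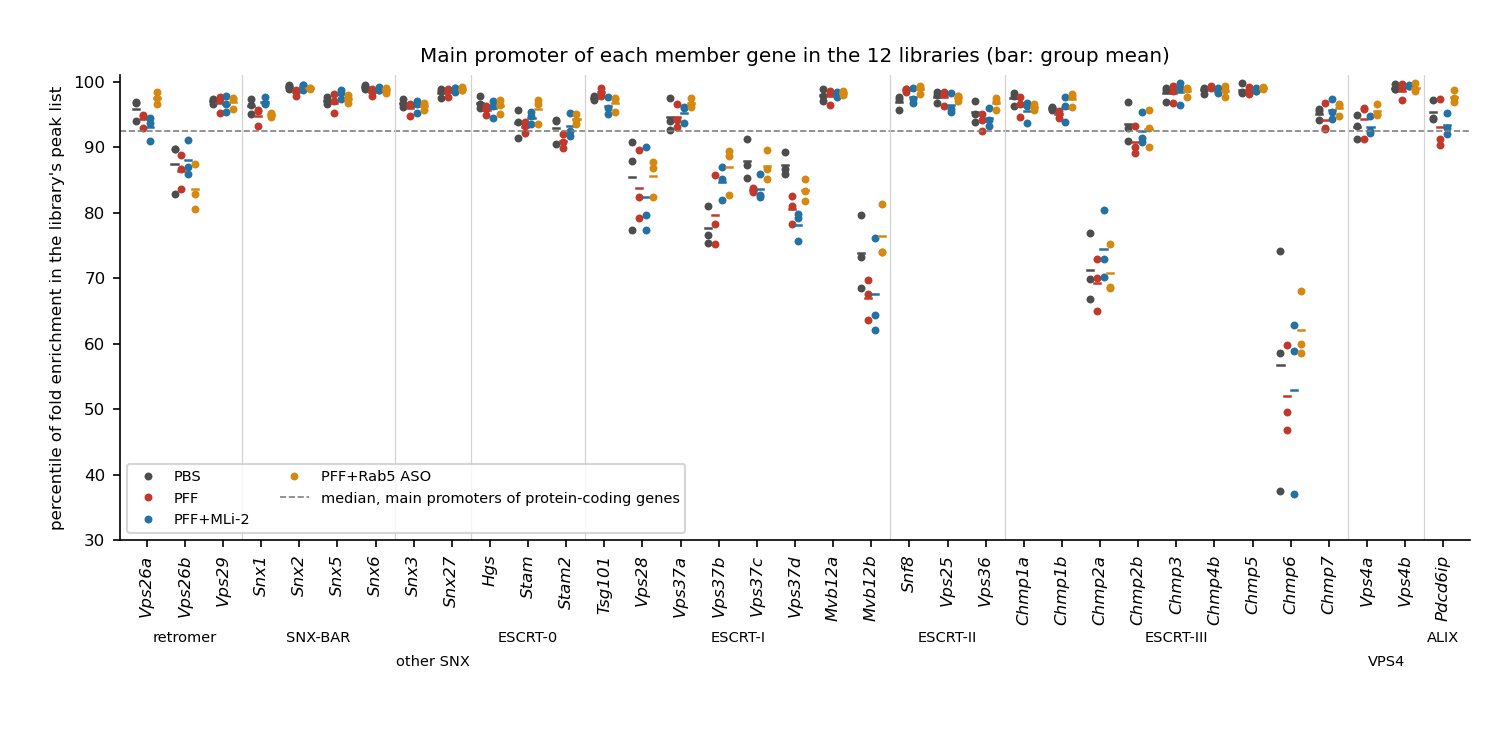
Percentile of fold enrichment within each library's peak list (y axis) at the main promoter of 35 member genes (x axis, grouped by complex), with 1 point per library, a short line at each group mean of 3 libraries and a dashed line at the median of protein-coding genes. Most genes lie above 90 in all 4 groups, and Chmp6 is the lowest, from 37.06 to 74.14.

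Vps4b, which encodes an ATPase that recycles ESCRT-III, had the highest main promoter. It was at 99.56, 98.86 and 98.85 in PBS, 99.02, 97.18 and 99.57 in PFF, 99.32, 99.37 and 99.4 in PFF+MLi-2, and 98.52, 98.88 and 99.71 in PFF+Rab5 ASO. The 4 groups overlapped there, and the lowest value was in PFF replicate 2 (limma F, adjusted p = 0.859). Its window at chr1:106796600-106796800 (gene on the minus strand) held none of the 9 motifs, which says only that these letters are not in it.
Vps4b main promoter: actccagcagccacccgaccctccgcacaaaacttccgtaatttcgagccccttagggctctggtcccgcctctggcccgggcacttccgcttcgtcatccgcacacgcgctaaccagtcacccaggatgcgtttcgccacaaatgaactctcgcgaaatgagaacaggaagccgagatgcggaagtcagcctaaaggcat

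Chmp6, an ESCRT-III subunit that links ESCRT-II to the filament, had the lowest main promoter. It was at 74.14, 37.5 and 58.49 in PBS, 46.85, 59.7 and 49.48 in PFF, 62.9, 58.85 and 37.06 in PFF+MLi-2, and 67.95, 58.52 and 59.9 in PFF+Rab5 ASO. Its group means spanned 10.11 percentiles, the widest range of the members, but the PBS libraries alone spanned more and the groups overlapped (limma F, adjusted p = 0.762). Chmp2a, another ESCRT-III subunit, was also low by fold, at 66.86, 76.92 and 69.9 in PBS and 65.01 to 80.33 over the 12 libraries. Its summit nevertheless held 63 to 77 fragments per library, more than the 24 to 41 of Chmp6, over a local background of 9.263 fragments, against 4.794 at Chmp6 and 2.419 at Vps4b. The fold divides the summit by this background, and Chmp2a had the highest local background of the 35. The 2 windows are shown for this contrast: Chmp6 at chr11:119913668-119913868 (plus strand gene) holds 1 GC box, and Chmp2a at chr7:13034636-13034836 (minus strand gene) holds an ETS motif and a cyclic AMP response element.
Chmp6 main promoter: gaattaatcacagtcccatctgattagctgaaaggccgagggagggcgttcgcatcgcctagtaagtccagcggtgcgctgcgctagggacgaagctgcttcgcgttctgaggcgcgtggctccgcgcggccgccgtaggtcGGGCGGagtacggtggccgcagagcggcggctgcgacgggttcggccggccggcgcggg
Chmp2a main promoter: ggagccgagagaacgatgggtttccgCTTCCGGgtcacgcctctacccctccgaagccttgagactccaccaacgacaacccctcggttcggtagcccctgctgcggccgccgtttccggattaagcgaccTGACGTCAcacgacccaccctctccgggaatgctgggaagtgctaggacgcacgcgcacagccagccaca

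**Figure D2:**
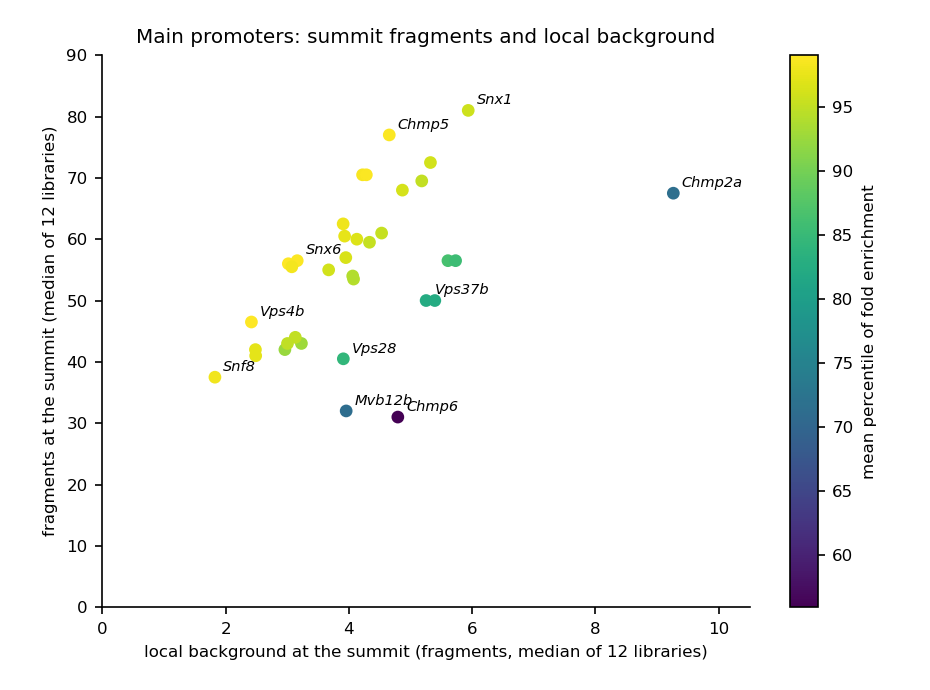
Fragments at the summit (y axis) against local background fragments (x axis), both medians over 12 libraries, for the 35 main promoters, coloured by mean percentile of fold enrichment (scale bar). Chmp2a stands apart with 67.5 fragments over a background of 9.263, whereas Chmp6 and Mvb12b have 31 and 32 fragments.

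Mvb12b, an ESCRT-I subunit, was the second lowest at 71.17. Its promoter was at 79.68, 68.53 and 73.24 in PBS, 67.6, 63.63 and 69.65 in PFF, 62, 64.38 and 76.09 in PFF+MLi-2, and 73.95, 81.37 and 73.95 in PFF+Rab5 ASO. In percentile, all 3 PFF+Rab5 ASO libraries lay above all 3 PFF libraries, while PBS and PFF overlapped. In the height score defined below, PFF+Rab5 ASO overlapped PFF, whereas PFF lay below PBS without an overlap. The range of the group means was 9.464 percentiles (limma F, adjusted p = 0.485). The window around its summit, at chr2:33887423-33887623 on a minus strand gene, is 87.1% GC, the highest of the 35.
Mvb12b main promoter: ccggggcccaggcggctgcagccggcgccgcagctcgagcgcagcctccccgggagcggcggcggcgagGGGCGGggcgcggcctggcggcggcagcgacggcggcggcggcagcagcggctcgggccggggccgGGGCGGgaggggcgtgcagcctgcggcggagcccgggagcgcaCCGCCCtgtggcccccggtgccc

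Vps37b, an ESCRT-I subunit whose promoter sequence is printed above, had the third widest range of group means, 9.254. It was at 80.93, 75.32 and 76.62 in PBS, 85.68, 75.21 and 78.21 in PFF, 86.96, 85.19 and 81.93 in PFF+MLi-2, and 82.64, 89.36 and 88.63 in PFF+Rab5 ASO. Both groups with an added agent lay above all PBS libraries and overlapped PFF, which overlapped PBS (limma F, adjusted p = 0.322). The narrowest ranges of group means were those of Chmp3 (0.3289), Vps29 (0.4289) and Mvb12a (0.4773). Vps29 was at 97.03, 97.34 and 96.59 in PBS, and its 12 libraries ran from 95.23 to 97.72 with all 4 groups overlapping. Chmp3, an ESCRT-III subunit, ran from 96.38 to 99.82 and Mvb12a from 96.46 to 98.82, also with overlapping groups.

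Chmp4c, an ESCRT-III subunit known for the abscission checkpoint of dividing cells, was the exception. It had 0 promoter regions in any of the 12 libraries, and its 10 regions were 2 exonic and 8 intronic. Its paralogue Chmp4b, the main ESCRT-III filament subunit, had a main promoter at 98.77 on average.

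Calls of member regions were steady at promoters and varied outside them. Of the 75 promoter regions, 47 (62.7%) were called in all 12 libraries, against 49.9% of the 36884 promoter regions of protein-coding genes, and 5 in 1 library only. Of the 132 others, 36 (27.3%) were called in all 12, against 23.8% genome-wide, and 39 in 1 library only. Mvb12b alone held 45 of the 207 regions, 38 of them intronic, in a gene of chr2:33729953-33887946. The number of member regions called was 140, 105 and 123 in PBS, 131, 131 and 124 in PFF, 105, 107 and 116 in PFF+MLi-2, and 129, 115 and 117 in PFF+Rab5 ASO. PFF+MLi-2 lay below PFF in every library, and PBS overlapped every other group. The PFF+MLi-2 lists were also shorter as a whole, with 145497 to 147991 peaks against 151900 to 172377 in PFF, and the part of this in the number of member regions was not tested.

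The 83 member regions called in all 12 libraries (47 promoter regions and 36 others) entered the comparison of heights. The rank of each region's fold within its library was put on a standard normal scale, here called the height score, and groups were compared with limma across all 72465 regions called in all 12 libraries, with Benjamini-Hochberg adjustment over all of them. PBS and PFF are each used in 3 of the 5 comparisons, so the comparisons are not independent and are given side by side. The largest rise or fall named in a comparison is the largest among member regions whose groups did not overlap in height score, and overlapping groups could differ by more.

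After exposure to fibrils, 0 of the 83 member regions had an adjusted p under 0.05 for PFF against PBS in limma, 6 had an unadjusted p under 0.05, and the share called over all regions was 0% (7044 regions at an unadjusted p under 0.05). The groups did not overlap in height score at 13 member regions (15.7%), against 15.1% of all regions. Promoter regions of the members were lower in PFF at 36 of 47, with a median difference of −0.13, and promoters of protein-coding genes at large had a median of −0.08 with 35.6% above 0, so most of those were also on the lower side. By complex, 4 of 4 promoter regions of ESCRT-0 (median −0.21) and 6 of 8 of the SNX-BAR genes (−0.22) were lower in PFF. So were 7 of 9 of ESCRT-III (−0.13), where Chmp3, at −0.00 and among the 36, is not counted. In ESCRT-I it was 9 of 13 (−0.07) and in the retromer core genes 4 of 5 (−0.10), and none of these regions passed in limma. Outside promoters the member median was −0.15 and that of all regions 0.01.

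Among regions without an overlap, the largest promoter rise with PFF was at an alternative start of Snx1, chr9:66101516-66101968, inside the gene. It was at 63.64, 68.87 and 76.56 in PBS and 81.6, 84.03 and 84.64 in PFF, with 19 to 22 fragments at the summit in PBS and 29 to 32 in PFF. The PFF libraries all lay above the PBS libraries, with a difference in height score of 0.60 (SE 0.248; limma adjusted p = 0.469), which was 0.38 without PBS replicate 1. The largest promoter fall was at the main promoter of Vps37d, at 85.96, 89.19 and 86.58 in PBS and 82.59, 78.2 and 80.98 in PFF. It stood at 79.71, 79.09 and 75.68 in PFF+MLi-2 and 83.22, 81.83 and 85.14 in PFF+Rab5 ASO, so that PBS was the highest group by mean, and the difference of PFF from PBS was −0.42 (SE 0.214; limma adjusted p = 0.573), or −0.23 when ranked by −log10 p. Vps37d encodes one of the 4 alternative Vps37 subunits of ESCRT-I.

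With MLi-2 added to fibrils, 0 of the 83 regions passed in limma against PFF (5 at an unadjusted p under 0.05), and the share over all regions was 0% (8289 at an unadjusted p under 0.05). The groups did not overlap at 15 member regions (18.1%), against 17.7% of all. Promoter regions were higher in PFF+MLi-2 at 32 of 47, with a median difference of 0.12, against 0.09 for promoters of protein-coding genes, of which 64.3% were above 0. By complex, 4 of 4 promoter regions of ESCRT-0 (median 0.22), 6 of 8 of the SNX-BAR genes (0.24) and 7 of 9 of ESCRT-III (0.21) were higher, against 2 of 5 of the retromer core genes (−0.03) and 1 of 3 of ESCRT-II (−0.12). Ranked by −log10 p instead of fold, the members' median was 0.02. Against PBS, PFF+MLi-2 also gave 0 calls in limma (5 at an unadjusted p under 0.05; 0% of all regions, and 4179 at an unadjusted p under 0.05). There the groups did not overlap at 12 member regions (14.5%), against 10.3% of all, and the promoter median was −0.02.

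At an alternative start of Vps37b, chr5:124010955-124011373, PFF+MLi-2 was the lowest group. The 12 values were 75.02, 64.1 and 70.28 in PBS, 78.05, 67.83 and 71.32 in PFF, 51.52, 51.87 and 54.24 in PFF+MLi-2, and 64.29, 58.13 and 67.13 in PFF+Rab5 ASO. All PFF+MLi-2 libraries lay below every other library. The difference was −0.59 from PFF (SE 0.199; limma adjusted p = 0.341) and −0.54 from PBS (SE 0.196; limma adjusted p = 0.841). The summit held 25 to 27 fragments in PFF+MLi-2 and 35 to 39 in PFF. At the main promoter of the same gene, the direction was the other way: PFF+MLi-2 was higher than PBS by 0.42 (SE 0.199; limma adjusted p = 0.872; 0.27 when ranked by −log10 p), with no overlap of the groups.

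The largest promoter rise of PFF+MLi-2 over PFF was at a further Snx1 start, chr9:66126438-66126939, which also lies at a start of Ciao2a. It was at 80.79, 69.13 and 69.16 in PFF and 78.36, 81.71 and 80.24 in PFF+MLi-2, where the percentiles overlapped through PFF replicate 1 although the height scores did not (difference 0.44, SE 0.208; limma adjusted p = 0.469; 0.21 when ranked by −log10 p). Outside promoters the largest rise was in a Mvb12b intron, chr2:33753586-33754195, at 74.63, 77.88 and 69.01 in PFF and 80.8, 87.97 and 80.34 in PFF+MLi-2. There PBS (82.89, 87.63 and 82.98) and PFF+Rab5 ASO (84.5, 85.89 and 87.67) also lay above every PFF library, and PFF+MLi-2 differed from PFF by 0.57 (SE 0.206; limma adjusted p = 0.361). A Stam2 exon, chr2:52720567-52720962, gave the largest rise of PFF+MLi-2 over PBS, from 60.4, 29.87 and 62.84 to 85.91, 70.25 and 67.09 (difference 0.96, SE 0.307; limma adjusted p = 0.827).

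With the Rab5 oligonucleotides added to fibrils, 1 of the 83 regions passed in limma against PFF (16 at an unadjusted p under 0.05, or 19.3%), with 3.83% called and 21.1% at an unadjusted p under 0.05 over all regions. The groups did not overlap at 27 member regions (32.5%), against 25.9% of all. Promoter regions were higher in PFF+Rab5 ASO at 34 of 47, with a median difference of 0.11, against 0.07 and 60.8% above 0 for promoters of protein-coding genes, and 0 of the 47 passed in limma (5 at an unadjusted p under 0.05). By complex, 4 of 4 promoter regions of ESCRT-0 (median 0.28), 7 of 9 of ESCRT-III (0.14) and 9 of 13 of ESCRT-I (0.12) were higher, against 2 of 5 of the retromer core genes (−0.01). Against PBS, 1 of the 83 passed in limma (9 at an unadjusted p under 0.05, or 10.8%), with 1.63% called and 18.7% at an unadjusted p under 0.05 over all regions. There the groups did not overlap at 17 member regions (20.5%), against 23% of all, and the promoter median was −0.03.

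**Figure D3:**
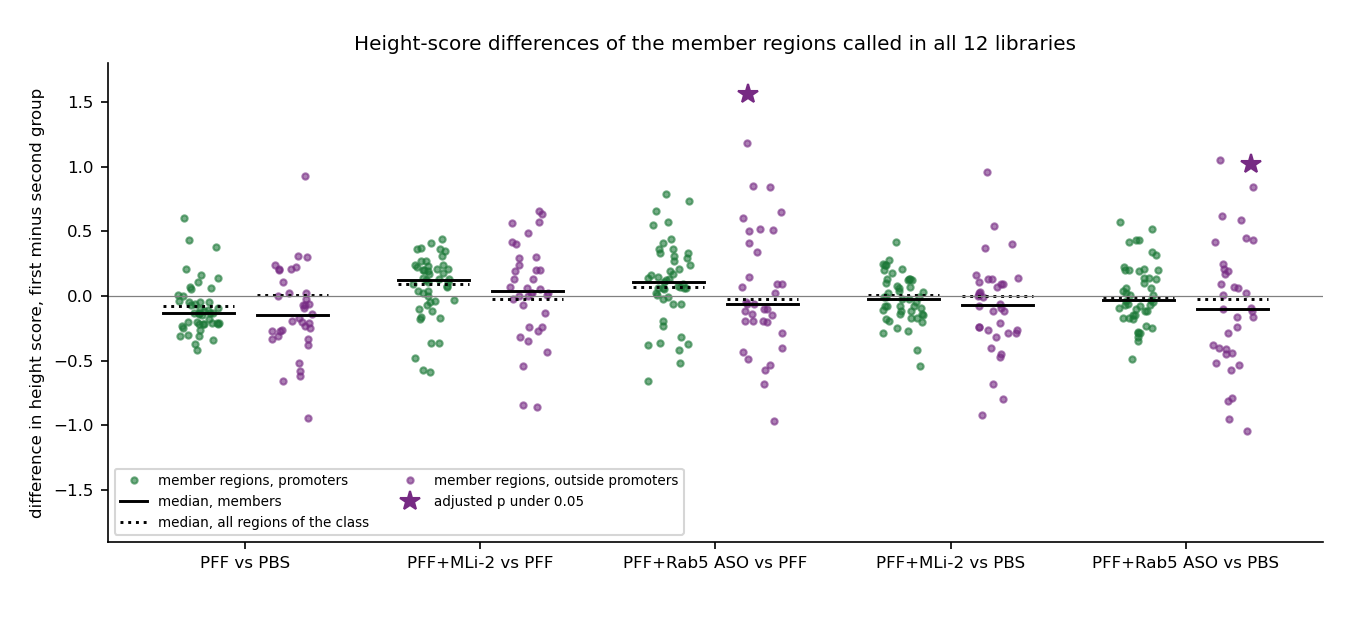
Difference in height score (y axis, normal scores of within-library rank, first minus second group) of the 83 member regions called in all 12 libraries, for the 5 comparisons (x axis). Green points are promoter regions, purple points other regions, stars an adjusted p under 0.05 in limma, solid lines the members' median and dotted lines the median of all regions of the class; the promoter medians of members and of protein-coding genes lie on the same side of 0 in the 3 comparisons of PFF with another group.

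The region called against PFF lay in an intron of Mvb12b, chr2:33813066-33813275, which overlaps the noncoding RNA gene Nron and lies within 1 kb of a start of it. Its percentiles were 66.46, 58.92 and 25.95 in PBS, 26.67, 25.2 and 10.77 in PFF, 49.86, 51.21 and 5.563 in PFF+MLi-2, and 77.3, 72.37 and 60.8 in PFF+Rab5 ASO. All PFF+Rab5 ASO libraries lay far above all PFF libraries, while PBS and PFF+MLi-2 were each split by replicate 3. The difference in height score between PFF+Rab5 ASO and PFF was 1.56 (SE 0.215; limma adjusted p = 0.0152), and without PFF+Rab5 ASO replicate 1 it was 1.46 with a limma adjusted p of 0.0559. The summit held 23 to 30 fragments in PFF+Rab5 ASO and 14 to 17 in PFF. The same region gave the largest fall outside promoters of PFF from PBS, −0.94 (SE 0.295; limma adjusted p = 0.351), where the percentiles of the groups overlapped although the height scores did not. The window shown, chr2:33813086-33813286, held none of the 9 motifs and was 44.8% GC.
Mvb12b intron window: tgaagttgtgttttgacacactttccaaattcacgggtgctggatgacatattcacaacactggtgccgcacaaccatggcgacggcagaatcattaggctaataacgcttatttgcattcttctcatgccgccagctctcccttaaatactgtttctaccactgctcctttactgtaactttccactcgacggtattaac

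The region called against PBS lay in an intron of Chmp4b, chr2:154677193-154677376. It was at 34.29, 21.12 and 35.97 in PBS, 71.45, 47.56 and 65.54 in PFF, 24.02, 13.52 and 48.09 in PFF+MLi-2, and 72.23, 59.03 and 60.69 in PFF+Rab5 ASO. PFF and PFF+Rab5 ASO lay above all PBS libraries and overlapped each other, and PFF+MLi-2 overlapped PBS. PFF+Rab5 ASO differed from PBS by 1.02 (SE 0.218; limma adjusted p = 0.0488), a value that passed 0.05 in none of the 6 fits without 1 library (limma adjusted p from 0.0727 to 0.131) and not when replicate number entered as a block (limma adjusted p = 0.0845). PFF differed from PBS by 0.93 (SE 0.261; limma adjusted p = 0.305), its largest rise outside promoters. The summit held 18 to 21 fragments in PBS and 24 to 33 in PFF. The window, chr2:154677194-154677394 on a plus strand gene, is shown with its 2 CCAAT matches, 1 on each strand.
Chmp4b intron window: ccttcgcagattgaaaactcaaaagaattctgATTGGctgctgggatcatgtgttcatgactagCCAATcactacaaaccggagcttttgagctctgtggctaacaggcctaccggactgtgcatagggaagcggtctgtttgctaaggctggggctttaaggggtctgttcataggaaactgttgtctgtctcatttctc

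Over the 4 groups together, 2 of the 83 regions passed the moderated F test of limma (13 at an unadjusted p under 0.05), against 3.5% of all 72465 regions, of which 15746 had an unadjusted p under 0.05. When replicate number entered as a block, 4 of the 83 and 2183 of all regions passed. Of the 2 regions, the block kept that of Chmp5 (limma adjusted p = 0.0272) and lost that of Stam2, and the 3 others that passed under it were the Chmp4b intron (limma adjusted p = 0.0429, 0.0642 without the block) and the Mvb12b introns chr2:33771024-33771713 (0.0483, 0.0721 without) and chr2:33813066-33813275 (0.0261, 0.0771 without). The first of the 2 regions that passed without the block lay in an intron of Chmp5, which encodes an ESCRT-III subunit, at chr4:40963537-40963897. Its percentiles were 94.92, 82.89 and 90.79 in PBS, 90.7, 90.03 and 89.56 in PFF, 72.99, 79.86 and 60.86 in PFF+MLi-2, and 97.56, 96.49 and 95.75 in PFF+Rab5 ASO. The PFF+MLi-2 libraries were the 3 lowest of the 12 and the PFF+Rab5 ASO libraries the 3 highest (F = 15.1; limma adjusted p = 0.0184). Without any 1 of the PFF+Rab5 ASO libraries the limma adjusted p was 0.0533 to 0.0563. PFF+MLi-2 differed from PFF by −0.86 (SE 0.228; limma adjusted p = 0.266) and from PBS by −0.92 (SE 0.268; limma adjusted p = 0.815), and PFF+Rab5 ASO from PFF by 0.65 (SE 0.186; limma adjusted p = 0.083). The summit held 16 to 20 fragments in PFF+MLi-2 and 35 to 37 in PFF+Rab5 ASO, whereas the main promoter of Chmp5 stayed between 98.1 and 99.75 in all libraries.
Chmp5 intron window (chr4:40963641-40963841, plus strand gene): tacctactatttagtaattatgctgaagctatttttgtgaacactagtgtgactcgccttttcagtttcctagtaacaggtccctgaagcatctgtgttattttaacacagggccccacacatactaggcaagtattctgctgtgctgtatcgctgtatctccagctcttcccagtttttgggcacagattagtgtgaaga

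The second lay in an intron of Stam2, an ESCRT-0 subunit that binds ubiquitin, at chr2:52701510-52701713. It was at 78.83, 82.89 and 62.84 in PBS, 70.17, 56.59 and 78.84 in PFF, 54.62, 61.1 and 49.81 in PFF+MLi-2, and 86.01, 94.32 and 92.41 in PFF+Rab5 ASO. PFF+Rab5 ASO was the highest group and did not overlap any other in percentile, while PBS and PFF overlapped (F = 9.5; limma adjusted p = 0.0421). The call was lost in 8 of the 12 fits without 1 library (limma adjusted p from 0.0375 to 0.136 over the 12) and when replicate number entered as a block (limma adjusted p = 0.0605). PFF+Rab5 ASO differed from PFF by 1.18 (SE 0.296; limma adjusted p = 0.058). The summit held 24 to 29 fragments in PFF+Rab5 ASO and 14 to 19 in PFF. The window is 36.8% GC and held none of the 9 motifs.
Stam2 intron window (chr2:52701510-52701710, minus strand gene): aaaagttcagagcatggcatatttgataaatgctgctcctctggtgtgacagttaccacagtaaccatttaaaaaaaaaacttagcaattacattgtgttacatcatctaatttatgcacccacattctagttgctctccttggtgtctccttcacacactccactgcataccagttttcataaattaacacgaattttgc

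**Figure D4:**
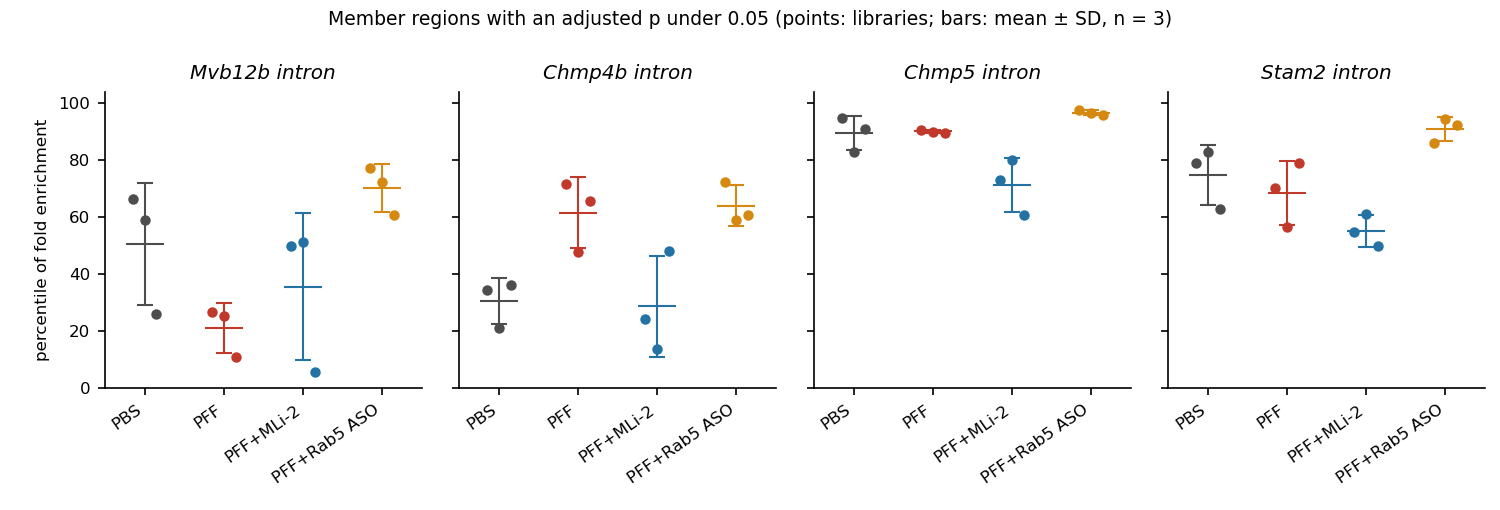
Percentile of fold enrichment (y axis) in the 4 groups (x axis) at the 4 member regions with a limma adjusted p under 0.05, with 1 point per library and bars at mean ± SD (n = 3). PFF+Rab5 ASO has the highest mean in all 4 regions, for example 70.16 ± 8.47 against 20.88 ± 8.78 in PFF at Mvb12b.

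Among promoters, the largest differences with the Rab5 oligonucleotides were at alternative starts inside Snx1, and they went in opposite directions. At chr9:66102677-66103091 the values were 63.26, 69.96 and 64.06 in PBS, 58.5, 71.62 and 53.09 in PFF, 71.12, 69.18 and 37.31 in PFF+MLi-2, and 77.59, 80.84 and 82.21 in PFF+Rab5 ASO. All PFF+Rab5 ASO libraries were above every other library, by 0.79 from PFF (SE 0.228; limma adjusted p = 0.0834) and 0.57 from PBS (SE 0.234; limma adjusted p = 0.222). The neighbouring start at chr9:66101516-66101968, described above for its rise with PFF, was at 72.12, 59.19 and 77.15 in PFF+Rab5 ASO. It lay below all PFF libraries there, by −0.66 (SE 0.235; limma adjusted p = 0.146), and overlapped PBS.

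Outside promoters, the largest fall with the oligonucleotides was in an intron of Stam, an ESCRT-0 subunit, at chr2:14137002-14137210. It was at 66.31, 81.09 and 79.58 in PBS, 80.34, 80.95 and 61.51 in PFF, 52.2, 59.5 and 77.35 in PFF+MLi-2, and 32.8, 58.51 and 52.64 in PFF+Rab5 ASO. PFF+Rab5 ASO lay below every PBS and PFF library, by −0.97 from PFF (SE 0.29; limma adjusted p = 0.0926) and −1.04 from PBS (SE 0.319; limma adjusted p = 0.116). The largest rise over PBS without an overlap was in another Mvb12b intron, chr2:33771024-33771713, from 32.92, 37.35 and 43.66 to 57.07, 78.09 and 75.11 (difference 1.05, SE 0.292; limma adjusted p = 0.0907). There PFF was at 36.88, 47.64 and 54.8 and PFF+MLi-2 at 33.17, 36.64 and 24.14. PFF+Rab5 ASO was thus above all other libraries in percentile, although its height scores overlapped those of PFF. The largest promoter fall from PBS with the oligonucleotides, at the Vps37b alternative start given above, was −0.32 (SE 0.211; limma adjusted p = 0.464), and there the percentiles of the groups overlapped although the height scores did not.

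Few member regions were called in all 3 libraries of a group and in 0 of 3 of the other, a pattern for which 3 against 3 libraries cannot give an exact p below 0.1. For PFF against PBS, 2 of the 186 member regions with a peak were gained and 0 lost, with 1.1% gained and 0.405% lost over all regions. For PFF+MLi-2 against PFF it was 1 gained and 1 lost of 169 (0.374% and 1.64% over all), and against PBS 1 gained and 0 lost of 172 (0.225% and 0.577%). For PFF+Rab5 ASO against PFF it was 2 gained and 3 lost of 181 (2.64% and 1.94%), and against PBS 3 gained and 1 lost of 185 (2.59% and 0.991%). These came from 9 regions, and no main promoter was among them.

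A Mvb12b intron was called only in PFF+Rab5 ASO, at chr2:33746927-33747107, with 22, 20 and 24 fragments in the 3 libraries and no peak in the 9 others. The converse region of the same gene, chr2:33760761-33760989, was called in all 9 other libraries, with 14 to 25 fragments, and in none of PFF+Rab5 ASO. A further Mvb12b intron, chr2:33805479-33805627, was called in PFF with 19, 18 and 16 fragments, in PFF+Rab5 ASO with 22, 16 and 22 and in PBS replicate 1 with 13, but not in PFF+MLi-2, and it lies within 1 kb of a start of Nron. The windows of the first pair are shown because calls in PFF+Rab5 ASO went opposite ways there. The first is chr2:33746944-33747144 and the second chr2:33760725-33760925, which holds an AP-1 match in capitals, as do 10.7% of all windows outside promoters called in all 12 libraries.
Mvb12b intron, called only in PFF+Rab5 ASO: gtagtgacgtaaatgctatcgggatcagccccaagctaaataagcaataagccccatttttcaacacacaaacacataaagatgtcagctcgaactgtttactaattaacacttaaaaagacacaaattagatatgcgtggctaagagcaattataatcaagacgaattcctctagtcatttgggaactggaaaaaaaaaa
Mvb12b intron, not called in PFF+Rab5 ASO: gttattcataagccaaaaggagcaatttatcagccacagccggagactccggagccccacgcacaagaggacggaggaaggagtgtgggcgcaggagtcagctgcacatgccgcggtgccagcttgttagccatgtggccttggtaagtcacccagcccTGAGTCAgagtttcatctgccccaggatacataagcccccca

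Chmp4c, which has no promoter peak, held 2 of these regions. Its intron at chr3:10371735-10371981 was called in 0 PBS, 3 PFF, 3 PFF+MLi-2 libraries and in 2 of PFF+Rab5 ASO, with 10 to 17 fragments. Its intron at chr3:10408682-10408995 was called in 2 PBS, 0 PFF, 3 PFF+MLi-2 libraries and in 3 of PFF+Rab5 ASO, with 14 and 12 fragments in PBS, 10, 10 and 9 in PFF+MLi-2 and 15, 17 and 20 in PFF+Rab5 ASO. PBS was the group without a peak at the first and PFF at the second.

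Chmp4b held an intronic region, chr2:154693527-154693696, with 14 fragments in each PFF library and in 1 PFF+MLi-2 library and no peak elsewhere. Its alternative start upstream of the main promoter, chr2:154650819-154650926, was called in 2 PFF and 3 PFF+Rab5 ASO libraries with 10 to 15 fragments. Upstream of Stam, chr2:14070606-14070805, which overlaps the gene Stamos, was called in 2 PBS, 3 PFF and 2 PFF+MLi-2 libraries with 14 to 24 fragments and in 0 PFF+Rab5 ASO libraries. A Pdcd6ip alternative start, chr9:113657952-113658079, was called in 1 PFF library with 11 fragments and in PFF+Rab5 ASO with 19, 12 and 16. Its window, chr9:113657931-113658131, is printed because it consists largely of a short repeat.
Pdcd6ip alternative start: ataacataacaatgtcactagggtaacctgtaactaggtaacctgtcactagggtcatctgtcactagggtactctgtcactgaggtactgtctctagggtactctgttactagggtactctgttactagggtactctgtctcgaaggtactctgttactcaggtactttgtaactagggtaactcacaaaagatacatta

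**Figure D5:**
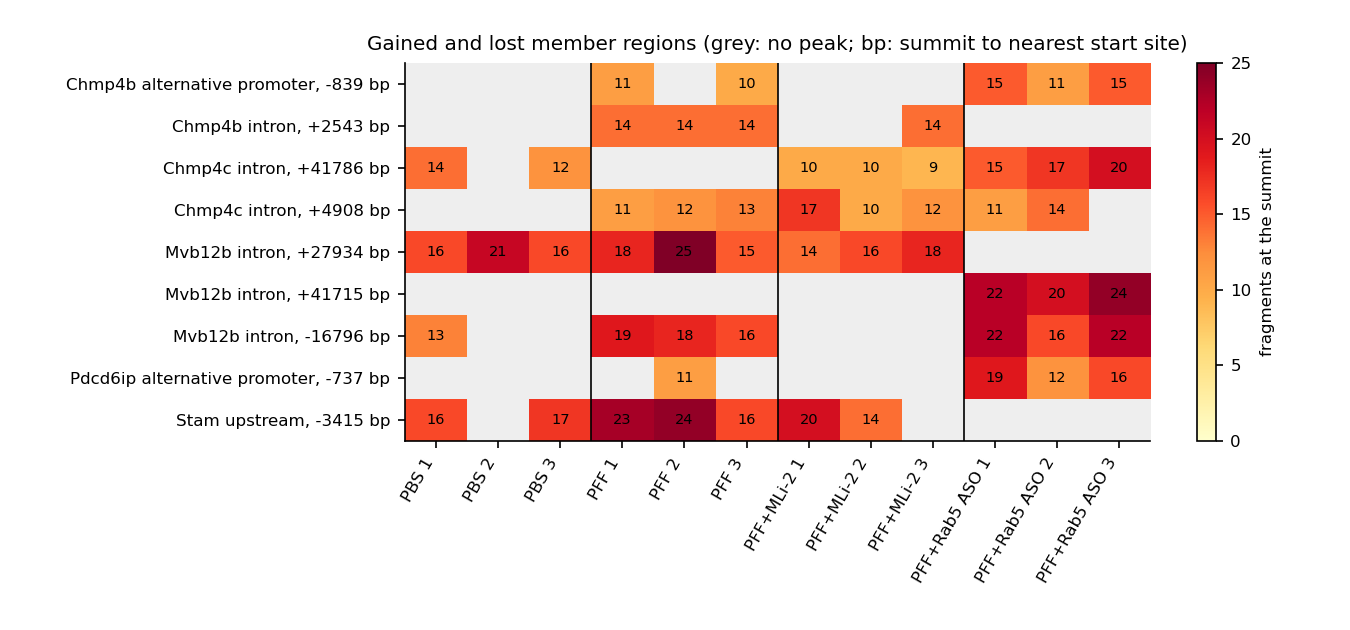
Fragments at the summit (colour and number) in the 12 libraries (x axis) at the 9 gained or lost member regions (y axis, with the distance from the summit to the nearest start site of the gene); grey cells have no peak. Called cells hold 9 to 25 fragments, and the 2 Mvb12b introns at 41715 and 27934 bp are called in opposite groups, 1 only in PFF+Rab5 ASO and 1 only in the other 9 libraries.

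Genes that work with these complexes showed few calls by limma. Of 12 genes of the WASH complex, retromer cofactors and retriever, which supply actin and partner sorting, 33 regions were tested and 0 passed in any of the 5 comparisons, as was the case for 20 regions of 12 ESCRT regulators. At an unadjusted p under 0.05 there were 4 of 33 and 2 of 20 for PFF against PBS (9.72% of all regions), 6 and 1 for PFF+MLi-2 against PFF (11.4%), 0 and 0 for PFF+MLi-2 against PBS (5.77%), 4 and 3 for PFF+Rab5 ASO against PFF (21.1%) and 1 and 2 for PFF+Rab5 ASO against PBS (18.7%). Of 57 regions of 17 other sorting nexins, 1 rose and 2 fell for PFF+Rab5 ASO against PFF, and 16 had an unadjusted p under 0.05, where 3.83% of all regions were called and 21.1% had an unadjusted p under 0.05. The riser was a Snx8 intron (1.48, SE 0.267; limma adjusted p = 0.0241), which also rose against PBS (1.46, SE 0.293; limma adjusted p = 0.0425; 1.63% of all regions called), and the others were introns of Snx33 (−1.23, SE 0.197; limma adjusted p = 0.0189) and Snx18 (−1.37, SE 0.309; limma adjusted p = 0.0436). Of 81 regions of 7 retromer cargo receptors, 1 intron of Sorcs2, a neuronal sorting receptor, rose for PFF+Rab5 ASO against PFF (0.89, SE 0.201; limma adjusted p = 0.0441), with 15 at an unadjusted p under 0.05, against the same 3.83% and 21.1% over all regions. These differences are of height score, and no region of the 4 lists passed in the comparisons of PFF with PBS, PFF+MLi-2 with PFF and PFF+MLi-2 with PBS.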

How the data were processed

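ATAC-seq peak lists of 12 libraries were used, 3 for each of 4 groups set by the titles and treatment labels. Per the labels and the study's methods, the authors used Trim Galore 0.6.7 for trimming and Bowtie2 2.5.1 for alignment to GRCm38, and called peaks in each library separately with MACS2 2.2.7.1. MACS2 options, duplicate removal and any Tn5 shift are not given in the sources used here. Of the deposited values, the fold enrichment over local background (a ratio) was the measure of height, the −log10 p-value was its alternative and the −log10 q-value set a stricter threshold. The deposited score is 10 times the −log10 q-value and was not analysed.

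Peaks were merged at 1 bp of overlap and assigned to GENCODE vM21 genes (gene body or 5 kb upstream, with promoters within 1 kb of a start site). Summit fragments and local background were recovered from fold and p-value, which gave whole fragments for 100% of peaks. They are counts of fragments covering the summit and not library totals, and total reads are not known. Ranks of fold over the 72465 regions called in all 12 libraries were turned into normal scores and compared with limma 3.58.1 in R 4.3.3 (2 groups per fit, 6 libraries, Benjamini-Hochberg adjustment over all regions, threshold 0.05), and over the 4 groups with the moderated F test. Ranks within a library do not show a change shared by all regions. Regions called in 3 of 3 against 0 of 3 libraries were counted as gained or lost. The code was tested on simulated data. Other steps used Python 3.11.15, numpy 2.4.6, pandas 2.3.3 and scipy 1.17.1.

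The members and gene lists were chosen with earlier results of these data known. Named were the regions gained or lost, those with an adjusted p under 0.05, per comparison the promoter and other region with the largest rise and fall among those whose groups did not overlap in height score, the 3 highest, lowest, widest and narrowest main promoters by percentile and range of group means, and genes without a promoter in all 12 libraries. Alternatives were ranking by −log10 p, a fit on all 12 libraries, regions called in the 6 libraries compared, equal numbers of top peaks, a replicate block, a stricter q-value, 50% coverage of a region, 2 of 3 libraries, narrower windows and leaving out each library.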

Additional observations from a re-analysis of the deposited data

How the results depend on the processing

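Of the member regions called in limma, PFF+Rab5 ASO against PFF gave 1 and 2 in the fit on all 12 libraries, and 0 to 1 without 1 library, where leaving out PFF+Rab5 ASO replicate 1 gave the 0. The comparison of PFF+Rab5 ASO with PBS gave 0 in place of 1 when ranked by −log10 p, in the fit on all 12 libraries, with the regions of the 6 libraries compared, and without any 1 library (0 to 0). The F test gave 1 in place of 2 when ranked by −log10 p and 0 to 3 without 1 library, 0 being without any 1 PFF+Rab5 ASO library and 1 without PBS replicate 1, PFF replicate 1 or PFF+MLi-2 replicate 1 or 2. At the Chmp4b intron the limma adjusted p for PFF+Rab5 ASO against PBS was 0.0456 to 0.131 over the alternatives, and at the Mvb12b intron against PFF 0.0139 to 0.0559. The other 3 comparisons gave 0 calls under every alternative run, and no named region changed sign.

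Under a block on replicate number, limma gave 4 in place of 2 by the F test, of which 1 was among the 2, and 0 in place of 1 for PFF+Rab5 ASO against PBS, where the Chmp4b intron had an adjusted p of 0.0845, and changed no other count of member calls. Deviations of same-numbered libraries correlated by 0.01 to 0.08 across regions, and those of other numbers by at most 0.01, and no source used here ties a number to a pregnancy, so the numbers were not taken to pair libraries, although cultures of a pregnancy were divided among the groups.

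Gained and lost regions together numbered 2 for PFF against PBS, and 1 at a −log10 q of at least 5, 13 with 2 of 3 libraries against 0, and 3 to 9 without 1 library. For PFF+MLi-2 against PFF the number was 2, and 1 with equal numbers of top peaks, 4 where peaks had to cover 50% of the region, 12 with 2 of 3 libraries, and 3 to 8 without 1 library. For PFF+Rab5 ASO against PFF it was 5, and 9, 15 and 6 to 11 with the coverage rule, with 2 of 3 libraries and without 1 library. For PFF+MLi-2 against PBS it was 1, and 0 at the stricter q, 5 with 2 of 3 libraries and 2 to 3 without 1 library. For PFF+Rab5 ASO against PBS it was 4, and 8 with equal top peaks, 10 with the coverage rule, 14 with 2 of 3 libraries and 5 to 8 without 1 library. Fewer libraries or calls needed make the rule easier to meet by construction, and the cause of the other shifts was not tested. The median promoter difference of PFF+MLi-2 from PFF was 0.12, and 0.02 when ranked by −log10 p, and the cause was not tested. Summits of member regions outside promoters held as few as 8 fragments, so absent calls there do not show absent accessibility.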
